A study of Homo sapiens with 16 samples.

Results

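1205Lu-R and 451Lu-R, both human melanoma lines, were compared gene by gene in libraries with no inhibitor in the labelled treatment, to describe the state of each resistant line. Both are BRAF inhibitor-resistant derivatives (the suffix R) of established melanoma lines, selected by months of growth in rising doses of PLX4032 (vemurafenib), a BRAF inhibitor, and then maintained in 5 µM PLX4032. For the libraries compared here the cells were labelled as given the vehicle DMSO for 24 hours. The sources used here do not say whether the PLX4032 of maintenance culture was removed beforehand, so its presence during these 24 hours is not known. The 4 libraries were 1205Lu-R DMSO replicates 1 and 2 and 451Lu-R DMSO replicates 1 and 2, of 16 samples in the series. A further 4 libraries, of the same lines after 24 hours in 2.5 µM corin, served to ask whether a line difference was also present under that compound. They also served to test whether it differed from that with DMSO, and entered an alternative fit of all 8 libraries. Corin is a bivalent inhibitor of the CoREST repressor complex, which joins the demethylase LSD1 and the deacetylases HDAC1 and HDAC2. All groups shared the resistant background. No parental, drug-sensitive library was compared, so the differences below are between 2 resistant lines and say nothing of what resistance itself changed. Each line is a single line. The sources do not say whether its replicates were separate cultures, so p-values measure only the spread between these libraries, which may be technical.

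The measurement was polyA RNA-seq, quantified as estimated counts per gene. Members of the comparison were the genes that passed a low-count filter on these 4 libraries: at least 0.929 counts per 1000000 (CPM) in at least 2 of them. This kept 14090 of the 34228 genes in the table. Just inside the filter, RET had estimated counts of 15, 9, 0 and 0 in 451Lu-R replicates 1 and 2 and 1205Lu-R replicates 1 and 2. Just outside it, PPM1J had 10, 11, 3 and 7. Library totals ran from 9663987 to 11066564 estimated counts, so 1 CPM stands for about 10 counts. Replicates of a line correlated at Pearson's r = 0.992 on log2 CPM, and libraries of different lines at 0.688 to 0.690. The median coefficient of variation between replicates was 3.12% over genes whose 2 line means summed to more than 20 CPM.

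Melanoma cells are known to occupy different transcriptional states. In the melanocytic, proliferative state the transcription factors MITF and SOX10 maintain the pigment cell program, including the enzymes that make melanin inside melanosomes. In the dedifferentiated, invasive state that program is low, and cells instead express the receptor tyrosine kinase AXL, the ligand WNT5A, extracellular matrix and genes driven by AP-1, TEAD and TGF-beta signalling. Both states have been seen in melanomas that no longer respond to BRAF inhibitors.

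The lines lay far apart. A gene was called when it differed by at least 4-fold between the lines with an adjusted p under 0.001 (edgeR quasi-likelihood test, Benjamini-Hochberg over the 14090 genes). By this rule 1417 genes (10.1%) were higher in 1205Lu-R and 1491 (10.6%) were higher in 451Lu-R. The opposite end was also well filled, since 8244 genes (58.5%) differed by less than 2-fold. For 585 of the genes higher in 1205Lu-R the other line had at most 3 counts in each library, and so did 1205Lu-R for 597 of the genes higher in 451Lu-R. A level of at most 3 counts per library in both libraries of a line is called the floor below, and folds against it are lower bounds. A tested gene at the floor in one line passed the filter through the other line alone. Its direction was therefore fixed by the filter, in every gene list below. The shares of 10.1% and 10.6% are the background for these lists, which were chosen with earlier results of these data known. Among called genes above the floor in both lines, the median fold was 8.45 for the 832 higher in 1205Lu-R and 6.98 for the 894 higher in 451Lu-R. More than 64-fold separated the lines for 80 and 33 of them. The differences reached abundant transcripts as well. Of the 100 genes with the most CPM in 1205Lu-R, 26 were called higher there, and of the 100 with the most CPM in 451Lu-R, 21 were called higher there.

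**Figure D1:**
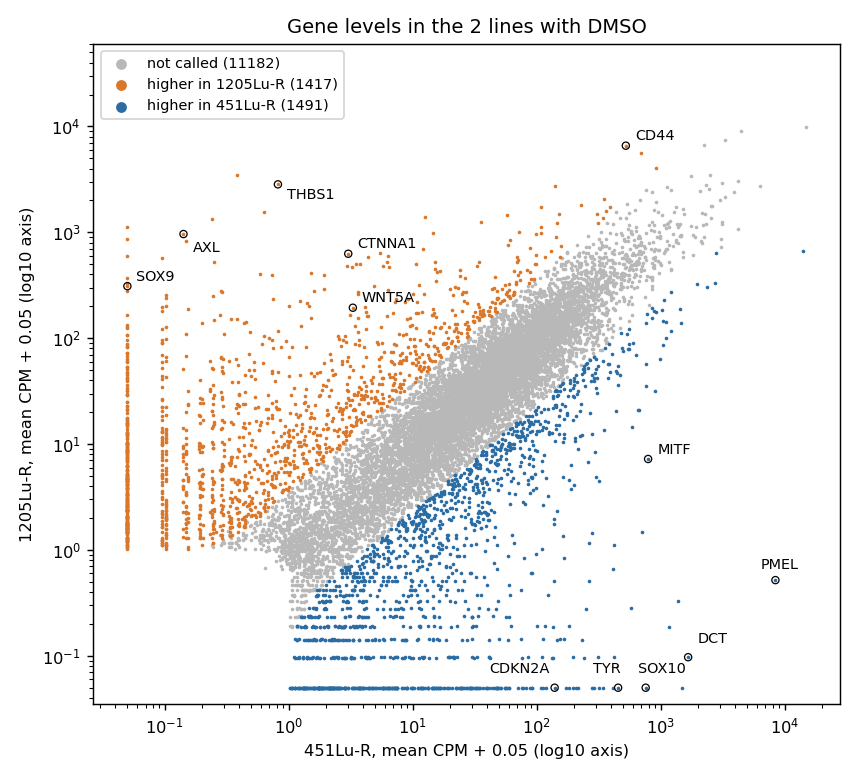
Mean CPM of each of the 14090 tested genes in 451Lu-R (x axis) and 1205Lu-R (y axis), both on log10 axes with 0.05 CPM added, n = 2 libraries a line. Grey points are genes not called, orange the 1417 called higher in 1205Lu-R and blue the 1491 called higher in 451Lu-R. The named points at the left edge, such as AXL and SOX9, were near 0 in 451Lu-R, and those along the bottom, such as SOX10 and TYR, were near 0 in 1205Lu-R.

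The lines were first checked against cell markers. Of the melanocytic markers TYR, DCT, PMEL, MLANA, SOX10, MITF and S100B, all were abundant in 451Lu-R, at 1161 CPM for MLANA and 415 CPM for S100B. In 1205Lu-R only MITF exceeded 1 CPM in every library, so for 1205Lu-R these defining markers, absent or close to it, gave no check of the label. Markers of other cell types were only partly missing. At the floor in both lines were 6 of 15 keratinocyte and epithelial markers measured, 5 of 9 fibroblast and 4 of 9 endothelial ones. The same held for 5 of 6 lymphoid and 5 of 8 myeloid markers. Among the missing ones, PTPRC, CDH5, EPCAM, KRT5, TP63, COL3A1, FAP and THY1 stood at 0 to 0.103 CPM in every library. The summed level of the lymphoid list was 0.283 to 2.07 CPM per library, and that of the endothelial list was 30.5 to 37.0 CPM. The fibroblast list summed to 50.7 and 54.2 CPM in 451Lu-R and 334 and 339 CPM in 1205Lu-R. PDGFRA and PDGFRB made up nearly all of the latter, while COL1A2, DCN and COL3A1 were at or near 0 in that line. The keratinocyte and epithelial list summed to 50.4 and 46.9 CPM in 451Lu-R and 171 and 167 CPM in 1205Lu-R, and the myeloid list to 67.0 and 70.6 CPM and to 12.4 and 11.8 CPM. The part of other cells in these sums was not tested.

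Genes of the pigment cell program were higher in 451Lu-R. Of 26 melanin enzymes and melanosome genes, all tested, 18 were called higher in 451Lu-R and none higher in 1205Lu-R, against backgrounds of 10.6% and 10.1% of all tested genes. Their median log2 fold change (1205Lu-R over 451Lu-R, negative when 451Lu-R was higher) was -5.18, or -3.80 with floor genes set at their lower bounds, beside -0.013 over all tested genes.

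PMEL, which forms the fibrils on which melanin is laid down, measured 8425 and 8448 CPM in 451Lu-R and 0.0904 and 0.847 CPM in 1205Lu-R. No other gene of the list took as many reads in 451Lu-R, and the few reads in 1205Lu-R were 1 and 9 counts. Tyrosinase (TYR), the enzyme that starts melanin synthesis, measured 449.9 and 459 CPM in 451Lu-R and 0 CPM in both 1205Lu-R libraries. Dopachrome tautomerase (DCT), a later enzyme of the same route, measured 1666 and 1669 CPM in 451Lu-R and 0 and 0.0942 CPM in 1205Lu-R. In each of these genes the lines did not overlap. The 451Lu-R libraries lay close together, while in 1205Lu-R the values rest on 0 to 9 counts and PMEL differed between its replicates. TYRP1, the third enzyme of that family, was much lower in 451Lu-R itself, with 4.77 and 5.07 CPM in 451Lu-R and 0 CPM in both 1205Lu-R libraries. Per kilobase of exon, TYRP1 stood at 1.32 CPM in 451Lu-R beside 175 for TYR, 221 for DCT and 2298 for PMEL, so the melanin enzymes were not expressed evenly within the line.

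The melanosomal antigen MLANA was at least 4194-fold higher in 451Lu-R and DCT at least 6025-fold. The ion exchanger SLC24A5 (342 against 0 CPM, 451Lu-R first) and the transporter SLC45A2 (289 against 0 CPM), both of which set pigment levels, had no reads in 1205Lu-R. GPNMB, a melanosomal and lysosomal glycoprotein, measured 1379.8 and 1358 CPM in 451Lu-R and 0.181 and 0.377 CPM in 1205Lu-R. The melanocortin receptor MC1R differed less, at 10.9-fold (89.1 against 7.61 CPM). Transport genes that other cells also use differed least. MYO5A, the motor that carries melanosomes, was 2.15-fold higher in 451Lu-R, and AP3D1, an adaptor subunit for cargo sorting, stood at 260.0 against 248 CPM with a log2 fold change of 0.035 ± 0.0304 (SE), which turned to -0.071 under scaling by library size alone. Neither was called.

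**Figure D2:**
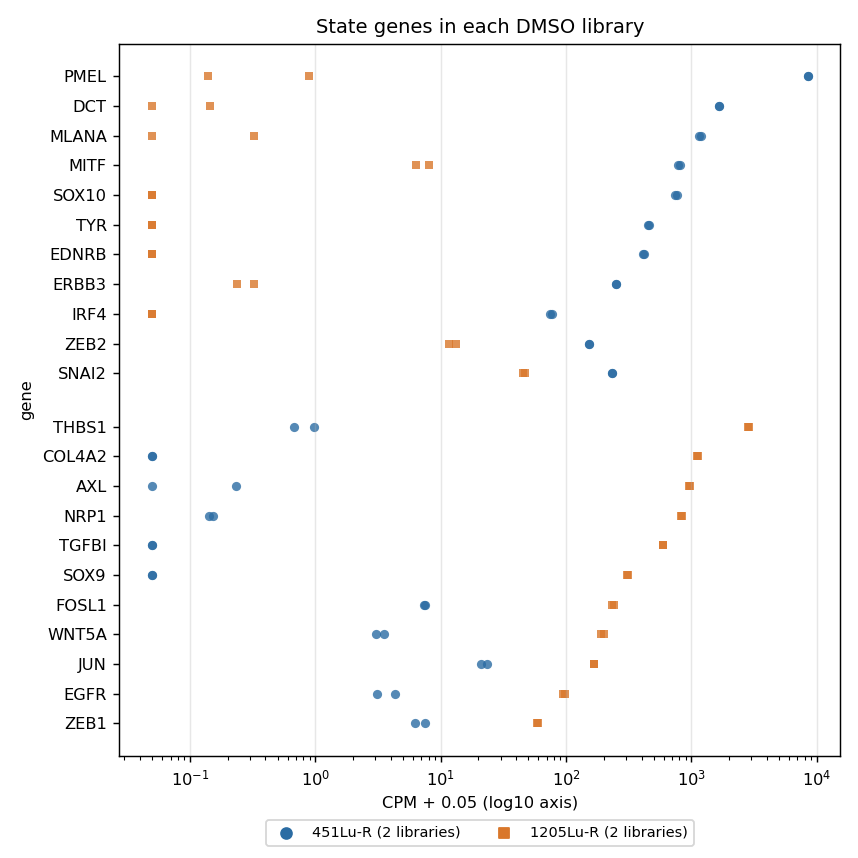
CPM of 22 state genes in each of the 4 DMSO libraries (log10 axis with 0.05 CPM added). Blue circles are the 2 451Lu-R libraries and orange squares the 2 1205Lu-R libraries, with the melanocytic genes in the upper block and the invasive genes in the lower. The colours change sides between the blocks, and replicates of a line overlap at all but the lowest levels.

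The letters before the start of these genes are shown because MITF is known to act through the hexamer CATGTG, the core of the M-box, which was first described in pigment gene promoters. In the RefSeq windows from 250 bases before to 50 bases after each start (GRCh38.p14), which matched 10676 of the 14090 tested genes by symbol, CATGTG on either strand was found in 6.59% of all promoters. It was present in 8 of the 19 melanosome promoters matched (42.1%), in 9.48% of those of genes called higher in 451Lu-R and in 6.3% of those of genes called higher in 1205Lu-R. The longer form TCATGTG, which contains the hexamer, was in 1.71%, 26.3%, 3.23% and 1.6% of the same sets. Below are the 160 bases ending just before the start of 4 of these genes, 5′ to 3′ on the gene's own strand, with CATGTG or its reverse complement in capitals. TYR lies at chr11:89177715-89177874 (plus strand), TYRP1 at chr9:12693225-12693384 (plus), GPNMB at chr7:23246615-23246774 (plus) and GPR143 at chrX:9765848-9766007 (minus).
TYR: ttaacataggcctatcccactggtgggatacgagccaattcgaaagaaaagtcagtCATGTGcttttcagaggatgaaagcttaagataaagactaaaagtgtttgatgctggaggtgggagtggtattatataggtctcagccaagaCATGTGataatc
TYRP1: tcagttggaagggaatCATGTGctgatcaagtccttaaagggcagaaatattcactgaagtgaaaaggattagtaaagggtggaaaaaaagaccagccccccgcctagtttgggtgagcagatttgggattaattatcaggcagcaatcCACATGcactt
GPNMB: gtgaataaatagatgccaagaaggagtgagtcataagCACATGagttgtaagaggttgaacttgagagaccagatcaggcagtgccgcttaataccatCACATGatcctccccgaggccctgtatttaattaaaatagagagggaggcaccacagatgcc
GPR143: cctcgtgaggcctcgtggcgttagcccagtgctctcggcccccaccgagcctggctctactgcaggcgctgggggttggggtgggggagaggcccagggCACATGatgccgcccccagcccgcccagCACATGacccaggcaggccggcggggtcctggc
TYR had matches beginning 104 and 12 bases before the start, TYRP1 144 and 11, GPNMB 123 and 62 and GPR143 61 and 33. All 4 were called higher in 451Lu-R, and GPR143, a melanosomal receptor, measured 138 and 136 CPM in 451Lu-R and 0.542 and 0.377 CPM in 1205Lu-R. The DCT and MLANA windows hold no CATGTG upstream of the start, although both genes differed between the lines as widely as TYR. A match is a description of letters and not of binding.

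The transcription factors of the lineage split between the lines. Of 20 tested, 9 were called higher in 451Lu-R and 4 higher in 1205Lu-R. MITF (chr3:69739456-69968336, plus strand, coordinates of the GENCODE annotation on GRCh38) measured 782 and 804 CPM in 451Lu-R and 8.04 and 6.31 CPM in 1205Lu-R, a difference of 102-fold (log2 -6.67 ± 0.0549, SE, edgeR adjusted p = 6.98e-31). Unlike TYR, SLC24A5 and SLC45A2, which had no reads in 1205Lu-R, MITF stayed detectable in both 1205Lu-R libraries. SOX10, which activates MITF in the neural crest lineage, measured 773 and 743 CPM in 451Lu-R and 0 CPM in both 1205Lu-R libraries. IRF4, a pigment regulator and MITF partner, measured 74.4 and 76.7 CPM in 451Lu-R and 0 CPM in both 1205Lu-R libraries. TFAP2A, another activator of pigment genes, was 9.38-fold higher in 451Lu-R (126 against 12.5 CPM), and SOX5, SOX6 and SOX4 were 13.1-, 17.4- and 17.5-fold higher. PAX3, an upstream activator of MITF, was the exception among the classical factors: at 57.8 and 58.2 CPM in 451Lu-R and 24.8 and 25.05 CPM in 1205Lu-R it differed by 2.16-fold, below the 4-fold rule. The opposite 4 were SOX9, SOX2, TBX3 and TFAP2C. SOX9, which acts in chondrocytes, stem cells and dedifferentiated melanoma, measured 0 CPM in both 451Lu-R libraries and 312 and 307 CPM in 1205Lu-R, at least 1058-fold higher in 1205Lu-R. TFAP2C, a paralog of TFAP2A, was 14.6-fold higher there (134 against 9.84 CPM, 1205Lu-R first). SOX10 and TFAP2A were thus high in the line where SOX9 and TFAP2C were low.

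Genes that earlier melanoma work had tied to the proliferative state, including the pigment genes above, gave the same direction. Of 51 tested, 45 were called higher in 451Lu-R and none in 1205Lu-R. APOE, a lipid carrier that is also a MITF-high marker, was at least 2073-fold higher (574 against 0.232 CPM). Glial and Schwann cell genes, which share the SOX10 lineage, had 11 of 14 called higher in 451Lu-R and none in 1205Lu-R. Of the 16 genes of this list, 9 were at the floor in 1205Lu-R. The direction of those among them that were tested was fixed by the filter. Myelin basic protein (MBP) averaged 231 against 0.0923 CPM (451Lu-R first). The neuregulin receptor ERBB3 and the endothelin receptor EDNRB, both of which serve neural crest migration and survival, measured 252 and 251 CPM in 451Lu-R and 0.271 and 0.188 CPM in 1205Lu-R and 417 and 411 CPM in 451Lu-R and 0 CPM in both 1205Lu-R libraries respectively. Each was at the floor in 1205Lu-R.

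The invasive list gave the opposite direction. Of 43 genes tested, 41 were called higher in 1205Lu-R and none in 451Lu-R, and the median log2 fold change was 5.33. The shares of all tested genes were 10.1% and 10.6%. This list, like the proliferative one, was written with earlier results of these data known. Its counts are therefore a description and no independent support for a state. AXL (chr19:41219223-41261766, plus strand) measured 948 and 976 CPM in 1205Lu-R and 0.183 and 0 CPM in 451Lu-R, or at least 3285-fold higher in 1205Lu-R (edgeR adjusted p = 5.22e-32). WNT5A, a non-canonical Wnt ligand that drives melanoma motility, measured 199.5 and 188 CPM in 1205Lu-R and 3.49 and 3.001 CPM in 451Lu-R, a 63.8-fold difference (log2 5.996 ± 0.0868, SE). Thrombospondin-1 (THBS1), an adhesive matrix glycoprotein, measured 2807 and 2861 CPM in 1205Lu-R and 0.917 and 0.621 CPM in 451Lu-R. Neuropilin-1 (NRP1), a co-receptor for VEGF and semaphorins, measured 831 and 835 CPM in 1205Lu-R and 0.0917 and 0.103 CPM in 451Lu-R. The 2 members not called were FGF2, a growth factor, at 10.96 against 10.3 CPM (1205Lu-R first), and the transcription factor FOXF2, at 26.6 against 7.73 CPM. Without 451Lu-R replicate 1, FOXF2 passed the rule at a log2 fold change of 2.06.

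Genes of the neural crest stem-like state divided between the lines. Of 13 tested, 5 were called higher in 1205Lu-R and 4 higher in 451Lu-R. Under a filter of a mean of at least 1 CPM the counts were 5 and 2. The median log2 fold change then moved from -0.206 to 1.55, so the division rests partly on low-count genes. NGFR, its best known marker and the low-affinity neurotrophin receptor, was low in both lines, with 1.28 and 0.828 CPM in 451Lu-R and 5.602 and 6.12 CPM in 1205Lu-R. The intermediate filament nestin (NES) was higher in 1205Lu-R, at 1263 against 35.8 CPM (1205Lu-R first), whereas the nuclear receptor RXRG was detected only in 451Lu-R, at 51.3 CPM. AQP1, GFRA2 and GAP43, which define this state elsewhere, stayed under the filter.

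Transcription factors of epithelial-mesenchymal transition differed in both directions. ZEB2 and SNAI2, which are present in normal melanocytes, were higher in 451Lu-R. ZEB2 measured 151 and 151 CPM in 451Lu-R and 13.3 and 11.6 CPM in 1205Lu-R and SNAI2 233 and 232 CPM in 451Lu-R and 47.3 and 45.3 CPM in 1205Lu-R. ZEB1, their counterpart in invasive cells, measured 6.15 and 7.45 CPM in 451Lu-R and 58.5 and 59.7 CPM in 1205Lu-R, so the ZEB1 difference was 9.39-fold one way and the ZEB2 difference 11.3-fold the other. PRRX1 and TWIST2, mesenchymal regulators, were also called higher in 1205Lu-R; TWIST2 had no reads in 451Lu-R and averaged 31.5 CPM in 1205Lu-R. In all, 5 of 10 tested factors were called higher in 1205Lu-R and 2 higher in 451Lu-R. TWIST1 and SNAI1 were not called.

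Extracellular matrix genes were mostly higher in 1205Lu-R where called. Of 26 collagen genes tested, 14 were called higher in 1205Lu-R and 8 higher in 451Lu-R, and of 32 other matrix genes 20 and 5. The paired basement membrane genes COL4A1 and COL4A2, which lie head to head and share a promoter, measured 474 and 485 CPM in 1205Lu-R and 3.302 and 2.48 CPM in 451Lu-R and 1099.5 and 1131 CPM in 1205Lu-R and 0 CPM in both 451Lu-R libraries. COL6A1, of the microfibrillar collagen VI, measured 2691 and 2749 CPM in 1205Lu-R and 139.7 and 143 CPM in 451Lu-R. Fibronectin (FN1) was abundant in both lines but 8.597-fold higher in 1205Lu-R, with 5492 and 5634 CPM in 1205Lu-R and 696 and 697 CPM in 451Lu-R. TGFBI, a TGF-beta-induced matrix protein, had no reads in 451Lu-R and averaged 594 CPM in 1205Lu-R. The 451Lu-R side held a different set: the cartilage collagen COL9A3 (278 against 12.5 CPM, 451Lu-R first), the proteoglycan lumican (LUM, 47.4 against 0 CPM) and the laminin chain LAMA2 (45.2 against 0 CPM). The fibrillar collagens COL1A2 and COL3A1, the bulk of fibroblast matrix, were at or near 0 in both lines.

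Adhesion receptors and cytoskeletal genes were also mostly higher in 1205Lu-R where called. Of 29 integrin and laminin genes, 14 were called higher in 1205Lu-R and 4 higher in 451Lu-R. The laminin-binding integrin subunit ITGA3 measured 1383 and 1388 CPM in 1205Lu-R and 12.5 and 12.6 CPM in 451Lu-R, and the collagen-binding ITGA2 averaged 599 against 6.23 CPM (1205Lu-R first). ITGB1, the common partner of both, was 4.77-fold higher, and ITGAV, which binds fibronectin and vitronectin, stood at 236 against 237 CPM and was not called. Of 40 caveolar and cytoskeletal genes, 17 were called higher in 1205Lu-R and 1, LGALS3, in 451Lu-R. The actin-bundling protein fascin (FSCN1) measured 1553 and 1546 CPM in 1205Lu-R and 0.642 and 0.517 CPM in 451Lu-R. Caveolin-1 (CAV1), the coat protein of caveolae, was 14.9-fold higher at 997 against 72.4 CPM, and the hyaluronan receptor CD44 13.5-fold at 6572 against 524 CPM. The intermediate filament vimentin (VIM), a mesenchymal marker that melanocytes also carry, was high in both lines at 9019 against 4477 CPM and was not called.

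Among junction genes, CTNNA1, alpha-catenin, which ties cadherins to actin, measured 2.84 and 3.104 CPM in 451Lu-R and 629 and 625 CPM in 1205Lu-R, a 227-fold difference. Its partner CTNNB1, beta-catenin, went the other way by 2.17-fold and was not called. Among 18 cadherin family genes, 4 were called higher in 1205Lu-R and 8 higher in 451Lu-R. With DESeq2 the counts were 4 and 6. The glial CDH19 averaged 17.9 CPM in 451Lu-R with no reads in 1205Lu-R, while CDH13, a cadherin anchored by lipid, averaged 248 CPM in 1205Lu-R against 0.195. N-cadherin (CDH2) was not called (43.1 against 101 CPM, 451Lu-R first), and E-cadherin (CDH1) was under the filter in both lines.

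Plasminogen and protease genes differed in both directions. The urokinase receptor PLAUR averaged 161 against 6.199 CPM (1205Lu-R first). The bone and lysosomal protease cathepsin K (CTSK), a MITF-family target, went the other way with 197 and 196 CPM in 451Lu-R and 0 and 0.0942 CPM in 1205Lu-R. The membrane protease MMP14, at 748 against 639.8 CPM, was not called. In all, 9 of 31 tested (29.0%) were called higher in 1205Lu-R and 3 (9.7%) higher in 451Lu-R. The latter share was near the 10.6% of all tested genes.

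**Figure D3:**
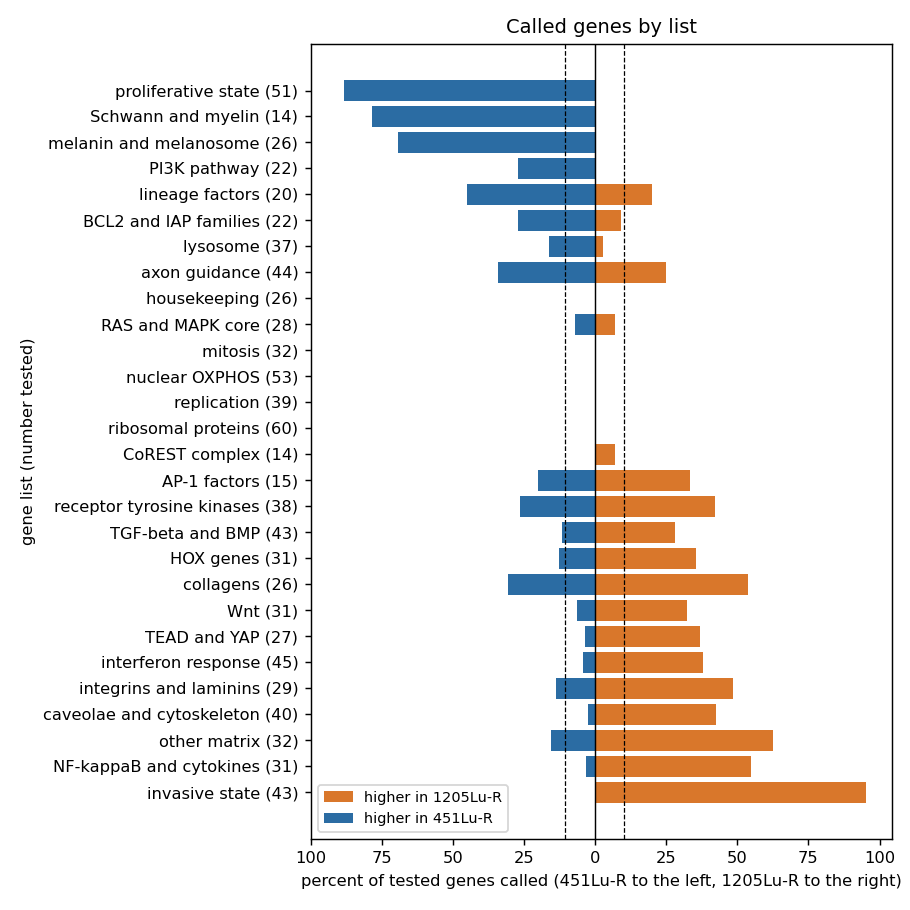
Percent of tested members called higher in 1205Lu-R (orange, to the right) and higher in 451Lu-R (blue, to the left) for the gene lists, with the number tested beside each name. Dashed lines mark the share over all 14090 tested genes, 10.1% and 10.6%. The proliferative, melanosome and Schwann lists extend to the left, the invasive and matrix lists to the right, and the replication, mitosis, nuclear oxidative phosphorylation, housekeeping and ribosomal lists have no called member.

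Receptor tyrosine kinases, several of which can bypass BRAF inhibition, differed in both directions. Of 38 tested, 16 were called higher in 1205Lu-R and 10 higher in 451Lu-R. With DESeq2 the counts were 15 and 8. Beside AXL, 1205Lu-R had more FGFR1 (377 against 45.9 CPM, 1205Lu-R first), EPHA2 (263 against 3.55), PDGFRA (196 against 4.08), DDR2 (155 against 9.45) and PDGFRB (139.6 against 0.149). EGFR, named here after its values were seen, measured 98.04 and 94.4 CPM in 1205Lu-R and 3.03 and 4.24 CPM in 451Lu-R, a 28.7-fold difference. On the other side, 451Lu-R had EPHA3 at 428 and 419.6 CPM in 451Lu-R and 0 and 0.0942 CPM in 1205Lu-R, and ERBB3 as given above. The AXL relative MERTK, which clears dying cells in phagocytes, went opposite to AXL, with 18.6 and 22.4 CPM in 451Lu-R and 0.181 and 0.0942 CPM in 1205Lu-R, and the third relative TYRO3 was not called (86.03 against 81.7 CPM, 451Lu-R first). The insulin receptor INSR was at the floor in 1205Lu-R (19.9 against 0.0471 CPM), while IGF1R was not called. MET, the HGF receptor, was present in both lines (197 against 90.5 CPM) and was not called.

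Among their ligands, GAS6, the ligand of AXL and MERTK, had no reads in 451Lu-R and measured 16.9 CPM on average in 1205Lu-R, so AXL and its ligand were found in the same line. The other ligand of the family, PROS1, was 27.9-fold higher in 451Lu-R. IGF2 measured 276 and 278 CPM in 1205Lu-R and 0.367 and 0.103 CPM in 451Lu-R, and VEGFA, the angiogenic factor, was 22.02-fold higher in 1205Lu-R. NRG3, which binds ERBB4, averaged 55.9 CPM in 451Lu-R with no reads in 1205Lu-R. In all, 8 of 21 tested ligands were called higher in 1205Lu-R and 5 higher in 451Lu-R.

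In the core of the RAS and MAPK pathway, 2 of 28 genes were called each way, which is near the background of 10.1% and 10.6% of all tested genes. The 451Lu-R count was 1 without 1205Lu-R replicate 2 or without 451Lu-R replicate 2. BRAF itself measured 35.04 and 39.3 CPM in 451Lu-R and 31.5 and 33.99 CPM in 1205Lu-R, a log2 difference of -0.073 ± 0.0801 (SE, edgeR adjusted p = 0.404), which became 0.004 without 451Lu-R replicate 2. NRAS (125 against 141 CPM, 451Lu-R first) and the p38 kinase MAPK14 (53.3 against 58.7 CPM) were not called either. RRAS and RRAS2, small GTPases related to RAS, were called higher in 1205Lu-R, and the p38 activator MAP2K6 and the GTPase MRAS higher in 451Lu-R. Genes that ERK activity is known to induce were more often higher in 1205Lu-R, with 8 of 24 called there and 2 in 451Lu-R. The latter count was 0 without 1205Lu-R replicate 1 and 1 without 1205Lu-R replicate 2, without 451Lu-R replicate 2, with DESeq2 or with 8 libraries in the fit, while the 8 did not change under these settings. However, the phosphatase DUSP6, a direct ERK feedback gene, was 2.903-fold higher (199.5 against 73.9 CPM, 1205Lu-R first) and was not called, and DUSP4 was 1.66-fold higher in 451Lu-R. FOSL1, the ERK-stabilised AP-1 subunit, measured 240.5 and 232 CPM in 1205Lu-R and 7.43 and 7.24 CPM in 451Lu-R. DUSP5, which acts on ERK in the nucleus, measured 44.2 and 46.9 CPM in 1205Lu-R and 6.79 and 6.11 CPM in 451Lu-R, and DUSP1, which acts on p38 and JNK, 18.3 and 14.5 CPM in 1205Lu-R and 8.44 and 8.07 CPM in 451Lu-R. Of these DUSP5 passed the rule and DUSP1, at 2.14-fold, did not. MYC was 4.08-fold higher in 451Lu-R, past the rule, with a log2 fold change of -2.03 that became -1.997, just short of 4-fold, without 1205Lu-R replicate 1.

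AP-1 subunits also differed in both directions. Of 15 tested, 5 were called higher in 1205Lu-R, FOSL1, FOSL2, JUN, MAFK and BATF3, and 3 in 451Lu-R, among them FOS and MAF. JUN measured 168 and 166 CPM in 1205Lu-R and 20.9 and 23.3 CPM in 451Lu-R and FOS 6.42 and 7.06 CPM in 1205Lu-R and 41.3 and 43.05 CPM in 451Lu-R. JUNB and JUND were not called. The AP-1 letters TGANTCA (N is any base, either strand) were in 4.41% of the promoter windows of all tested genes, in 8.44% of those of genes called higher in 1205Lu-R and in 5.38% of those of genes called higher in 451Lu-R. For TATAAA the shares were 5.41%, 7.16% and 7.72%, for the SOX letters ACAAAG 10.5%, 12.4% and 14.8%, and for the TEAD letters GGAATG 10.7%, 13.6% and 12.7%, so these 3 motifs separated the called genes of the 2 lines by less than the AP-1 letters did. The 3 list members with the highest CPM in 1205Lu-R among called genes with TGANTCA before the start are printed to show where it sits, with the match in capitals: PDGFRA, 100 bases at chr4:54229193-54229292 (plus strand), PLAUR, 200 bases at chr19:43670170-43670369 (minus), and IL11, 200 bases at chr19:55370464-55370663 (minus), GRCh38.p14.
PDGFRA: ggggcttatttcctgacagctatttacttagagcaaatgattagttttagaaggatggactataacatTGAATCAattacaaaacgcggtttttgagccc
PLAUR: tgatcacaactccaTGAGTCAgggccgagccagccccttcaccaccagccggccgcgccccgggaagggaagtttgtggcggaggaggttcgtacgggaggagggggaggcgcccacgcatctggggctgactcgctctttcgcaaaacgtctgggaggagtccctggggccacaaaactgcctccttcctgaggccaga
IL11: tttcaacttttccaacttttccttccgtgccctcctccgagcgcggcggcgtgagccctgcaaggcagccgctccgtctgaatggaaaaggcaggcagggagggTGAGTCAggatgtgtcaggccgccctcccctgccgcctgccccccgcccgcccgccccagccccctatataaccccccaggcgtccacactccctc
The matches begin 32, 186 and 96 bases before the start. Their levels were given above for PDGFRA and PLAUR, and IL11, a cytokine of the IL-6 family, measured 61.9 and 59.3 CPM in 1205Lu-R and 0.367 and 0 CPM in 451Lu-R.

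Targets of YAP and TEAD were called more often in the direction of 1205Lu-R, while the factors themselves differed by less than 4-fold. Of 27 tested genes of the list, 10 were called higher in 1205Lu-R and 1, TGFB2, in 451Lu-R. CCN1 measured 155 and 174 CPM in 1205Lu-R and 0 CPM in both 451Lu-R libraries and CRIM1 averaged 504 against 10.6 CPM (1205Lu-R first). CCN2, the target most often measured, was 85.02 against 27.2 CPM and was not called, and neither were YAP1 (175 against 113), WWTR1 (554 against 292) and TEAD1 (275 against 208), which were 1.67-, 2.04- and 1.42-fold higher in 1205Lu-R. For the TGF-beta and BMP list the counts were 12 higher in 1205Lu-R and 5 higher in 451Lu-R of 43. The ligand TGFB1 was 17.2-fold higher in 1205Lu-R with 393 and 385 CPM in 1205Lu-R and 25.5 and 22.97 CPM in 451Lu-R, its signal transducer SMAD3 6.68-fold, and the activin subunit INHBA averaged 31.6 against 0.183 CPM. The receptor TGFBR1 was not called (139 against 115). BMP-side genes on the 451Lu-R side included ID4 (19.9 against 0.277 CPM, 451Lu-R first) and SMAD9 (32.8 against 1.84).

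Of 31 Wnt pathway genes, WNT5A included, 10 were called higher in 1205Lu-R, 2 higher in 451Lu-R and 19 were not called. WNT5B averaged 52.3 against 0.0459 CPM (1205Lu-R first) and WNT7B 66.3 against 0.235. The secreted antagonists DKK3 (572 against 0.0459), SFRP1 (1215 against 147) and DKK1 (67.5 against 0.0976) were also among them. LEF1, the nuclear effector that works with MITF in melanocytes, was 4.06-fold higher in 451Lu-R, just past the 4-fold rule, and the canonical target AXIN2 was not called (3.47 against 3.32). In the Notch list 2 of 15 were called higher in 1205Lu-R and 3 higher in 451Lu-R: HES1 was 7.298-fold higher in 1205Lu-R, and HEY1, also a Notch target, 24.2-fold higher in 451Lu-R.

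Guidance genes for growing axons divided almost evenly, with 11 of 44 called higher in 1205Lu-R and 15 higher in 451Lu-R, though the individual folds were large. The semaphorin receptor PLXNC1 measured 271 and 257 CPM in 451Lu-R and 0.813 and 1.41 CPM in 1205Lu-R, and PLXNA4, a receptor of the same family that pairs with NRP1, 1.01 and 1.35 CPM in 451Lu-R and 222 and 223 CPM in 1205Lu-R. NRP1 and PLXNA4 were thus both 1205Lu-R genes.

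Cytokine and innate immune genes were called more often in the direction of 1205Lu-R. Of 31 NF-kappaB, cytokine and cytokine receptor genes, 17 were called higher there, 1, NFKBIZ, in 451Lu-R, and 13 were not called. The cytokine LIF measured 290.2 and 291 CPM in 1205Lu-R and 1.65 and 2.07 CPM in 451Lu-R, and its receptor pair LIFR (184 against 20.6 CPM, 1205Lu-R first) and IL6ST (505 against 97.3) was called in the same direction. IL1R1, the interleukin-1 receptor, was 17.7-fold higher. The NF-kappaB subunits NFKB1 (58.3 against 53.1) and RELA (77.8 against 52.1) were not called, and CXCL8, TNF and IL1A were under the filter. Of 45 interferon response genes, 17 were called higher in 1205Lu-R, 2 higher in 451Lu-R and 26 were not called. With DESeq2 the counts were 16 and 1, and they also changed when some single libraries were left out. IFITM3, which blocks virus entry, measured 151 and 149 CPM in 1205Lu-R and 0.275 and 0.31 CPM in 451Lu-R. The DNA sensor CGAS averaged 20.5 against 0.189 CPM, and its adaptor STING1 was 3.44-fold higher without being called. ISG15 (13.7 against 19.2), a common readout of the response, was not called.

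For antigen presentation, 15 of 19 genes were not called. Of the 19 MHC class I pathway genes, 4 were called higher in 1205Lu-R and none in 451Lu-R. The trimming peptidase ERAP2 measured 199 and 200.3 CPM in 1205Lu-R and 1.101 and 0.828 CPM in 451Lu-R, and the immunoproteasome subunit PSMB9 averaged 24.4 against 2.45 CPM (1205Lu-R first) and HLA-B 251 against 58.2. HLA genes share reads among themselves and differ between people's alleles, so their estimates are uncertain. Among 14 checkpoint and NK cell ligands, CD274 (PD-L1) measured 12.1 and 12.2 CPM in 1205Lu-R and 1.19 and 2.28 CPM in 451Lu-R, PDCD1LG2 (PD-L2) 8.31 and 8.47 CPM in 1205Lu-R and 0 CPM in both 451Lu-R libraries and CD70, a T cell costimulator, 91.7 and 88.3 CPM in 1205Lu-R and 5.87 and 5.28 CPM in 451Lu-R. TNFRSF14, a receptor of the TNF family, was the only one called higher in 451Lu-R, with 110.0 and 108 CPM in 451Lu-R and 0 CPM in both 1205Lu-R libraries.

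Among cell cycle genes, 2 of 22 G1 regulators (9.1%) were called higher in 1205Lu-R and 5 (22.7%) higher in 451Lu-R. The shares of all tested genes were 10.1% and 10.6%. Under a filter of a mean of at least 1 CPM, only 1 G1 regulator was called higher in 1205Lu-R. No gene of 39 in DNA replication or of 32 in mitosis was called in either direction by edgeR, with median log2 fold changes of 0.58 and 0.53. DESeq2 called 0 in both lists as well. At an unadjusted p under 0.05 with no fold limit, 37 of the 39 and 30 of the 32 differed, and at an adjusted p under 0.05 and 2-fold, 11 and 4 were higher in 1205Lu-R. MKI67, a marker of cycling cells, measured 174 and 172 CPM in 451Lu-R and 256 and 261 CPM in 1205Lu-R, and FOXM1, which drives mitotic genes, was 3.89-fold higher in 1205Lu-R. The inhibitors CDKN2A and CDKN2B, neighbours on chromosome 9, measured 143 and 137 CPM in 451Lu-R and 0 CPM in both 1205Lu-R libraries and 34.2 and 31.7 CPM in 451Lu-R and 0 CPM in both 1205Lu-R libraries. MTAP, the next gene along, was expressed in both lines at 105 and 109 CPM in 451Lu-R and 145 and 146 CPM in 1205Lu-R. CDKN2A overlaps the antisense gene CDKN2B-AS1, whose reads are not separable from it without strand. CDKN1A, the p21 inhibitor, went the other way with 2.57 and 3.001 CPM in 451Lu-R and 103 and 105 CPM in 1205Lu-R, a 40.2-fold difference. CDK2, which shares its locus with PMEL on the opposite strand, was 5.28-fold higher in 451Lu-R, and cyclin D1 (CCND1) 3.22-fold higher in 1205Lu-R (997 against 333 CPM, 1205Lu-R first), below the rule.

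The PI3K list held 6 genes called higher in 451Lu-R of 22 and none in 1205Lu-R. INPP4B, a lipid phosphatase of the pathway, averaged 147 against 0.0904 CPM (451Lu-R first), and PHLPP1, which removes phosphate from AKT, 118 against 16.6. Members that act on the other side, PIK3R3, a regulatory subunit of PI3K, and IRS2, the insulin receptor adaptor, were also called higher in 451Lu-R (587 against 14.5 and 211 against 29.5 CPM). The AKT and PIK3CA genes were not called. Among 22 apoptosis regulators of the BCL2 and IAP families, 2 (9.1%) were called higher in 1205Lu-R, PMAIP1 and BIRC3, and 6 (27.3%) in 451Lu-R. The shares of all tested genes were 10.1% and 10.6%. Among those higher in 451Lu-R, BCL2A1, a MITF target that protects melanocytes, was 11.1-fold higher (73.5 against 6.16 CPM). The melanoma inhibitor of apoptosis BIRC7 averaged 50.7 against 0 CPM. MCL1, BCL2L1 and BAX were not called.

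Genes of energy metabolism gave calls in some groups and not in others. None of 53 nuclear genes of oxidative phosphorylation was called by edgeR or DESeq2, although 47 had an unadjusted p under 0.05. They had a median log2 fold change of -0.13, and 2 and 3 passed the looser 2-fold rule in 1205Lu-R and 451Lu-R. Of the 13 protein genes encoded on the mitochondrial genome, a list added after its values were seen, 10 were called higher in 451Lu-R. MT-CO2, a cytochrome oxidase subunit, measured 2704 and 2831 CPM in 451Lu-R and 329.8 and 340.3 CPM in 1205Lu-R, and MT-CO1, its partner, 2995 and 3097 CPM in 451Lu-R and 727 and 714 CPM in 1205Lu-R, just below the rule at 3.93-fold. Without 451Lu-R replicate 1 it was called, at a log2 fold change of -2.01. Transcripts of that genome took 2.98% and 3.07% of all counts in 451Lu-R and 0.38% in both 1205Lu-R libraries. Much of this share in 451Lu-R was the ribosomal RNA MT-RNR2, at 13855 and 14168 CPM in 451Lu-R and 656 and 663 CPM in 1205Lu-R, and the 13 protein genes alone summed to 15185 and 15731 CPM in 451Lu-R and to 2946 and 2942 CPM in 1205Lu-R. PPARGC1A, the PGC1-alpha coactivator of mitochondrial genes and a MITF target, was low even where present, with 4.68 and 3.62 CPM in 451Lu-R and 0.0904 and 0 CPM in 1205Lu-R. In glycolysis and hypoxia 3 of 32 (9.4%) were called higher in 1205Lu-R and 4 (12.5%) higher in 451Lu-R. These shares were near the 10.1% and 10.6% of all tested genes. The glucose transporter SLC2A1 was 5.83-fold higher in 1205Lu-R and hexokinase HK2 10.3-fold higher in 451Lu-R. Of 37 lysosome genes 6 were called higher in 451Lu-R and 1 higher in 1205Lu-R, with a median of -1.08. The 34 sterol and fatty acid genes had 2 (5.9%) called higher in 1205Lu-R and 3 (8.8%) in 451Lu-R, below the shares of all tested genes. The former included the cholesterol exporter ABCA1 (88.3 against 3.36 CPM, 1205Lu-R first). The latter included SREBF2, the master regulator of sterol synthesis (305 against 41.9 CPM, 451Lu-R first). NRF2 and ATF4 targets were near background, with 1 and 2 of 22 and 2 and 4 of 25 called.

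Of 14 tested genes of the CoREST complex, the target of corin, 1 was called higher in 1205Lu-R and none in 451Lu-R, against 10.1% and 10.6% of all tested genes. It was GSE1, an associated subunit, 5.03-fold higher in 1205Lu-R (36.8 against 7.84 CPM, 1205Lu-R first). RCOR1, the scaffold of the complex, measured 59.8 and 51.5 CPM in 451Lu-R and 29.6 and 34.4 CPM in 1205Lu-R and KDM1A, which encodes LSD1, 207 and 207 CPM in 451Lu-R and 103 and 109 CPM in 1205Lu-R. HDAC1 and HDAC2 differed by 1.16- and 1.16-fold. All 4 were nominally higher in 451Lu-R and none passed the 4-fold rule. Of 43 other chromatin regulators, UHRF1, a DNA methylation cofactor, was called higher in 1205Lu-R (4.56-fold) and HDAC10 and DNMT3B higher in 451Lu-R. These were 2.3% and 4.7% of that list, below the shares of all tested genes.

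HOX, germline and imprinted genes were often at the floor in one line. Of 31 HOX genes, 11 were called higher in 1205Lu-R and 4 higher in 451Lu-R. HOXB7 measured 25.2 and 28.2 CPM in 1205Lu-R and 0.0917 and 0 CPM in 451Lu-R and HOXA10 15.5 and 13.7 CPM in 1205Lu-R and 0 CPM in both 451Lu-R libraries, while HOXD13, a distal limb gene, was 5.76-fold higher in 451Lu-R. Of the 10 cancer-testis antigens tested, 9 were called higher in 451Lu-R, but most of the list (24 of 34 genes in the table) was under the filter. In 1205Lu-R 32 of the 34 were at the floor, so most tested members passed the filter through 451Lu-R alone. Their direction was then close to fixed by the filter. MAGEA3 measured 183 and 183 CPM in 451Lu-R and 0 CPM in both 1205Lu-R libraries and PRAME 1207 and 1211 CPM in 451Lu-R and 117 and 115 CPM in 1205Lu-R. The MAGEA and GAGE copies are nearly identical and their reads may be shared out among them. PASD1 was the exception, at least 334-fold higher in 1205Lu-R. Of 22 imprinted genes 5 were called each way: NDN averaged 46.6 CPM in 451Lu-R with no reads in 1205Lu-R, and IGF2 and its neighbour H19 were both 1205Lu-R genes, H19 at 31.1 against 0.39 CPM (1205Lu-R first). Among 12 drug efflux transporters, ABCB5, once proposed as a melanoma stem cell marker, averaged 32.3 against 0.139 CPM (451Lu-R first) and ABCC3 0.0517 against 11.3 CPM, and ABCB1, the classical multidrug pump, was under the filter.

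Long non-coding RNAs were called more often than coding genes. Of 1208 tested, 159 (13.2%) were higher in 1205Lu-R and 232 (19.2%) higher in 451Lu-R, against 9.6% and 9.5% of 12417 protein-coding genes. A gene can pass the filter through 1 line alone, and the part of low levels in these shares was not tested. Housekeeping and ribosomal protein genes, by contrast, held no call by edgeR or DESeq2 in 26 and 60 genes, of which 25 and 57 had an unadjusted p under 0.05 in edgeR. Their medians still moved, by 0.19 and -0.53 on the log2 scale, and GAPDH and ACTB, often used as references, were 2.46- and 3.21-fold higher in 1205Lu-R.

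Position along the genome was examined with coding genes of at least 10 counts in all 4 libraries, so that on and off genes could not set the value. Over 10748 such genes the median log2 fold change was 0.01. By chromosome it ran from -0.904 on chromosome 22 (254 genes) to 0.632 on chromosome 7 (501 genes). Chromosomes 20 (-0.477), 13 (-0.353) and 15 (-0.3) were also low and chromosome 5 (0.379) high. The interquartile range of all tested coding genes on chromosome 22 ran from -1.527 to -0.044 and on chromosome 7 from 0.014 to 1.46, so most genes of each shared the direction. In bins of 10 Mb with at least 20 such genes, the lowest median was -1.589, over 56 genes of chromosome 11 between 70 and 80 Mb. As a description, 4 runs of 3 or more neighbouring coding genes were at the floor in one line with at least 20 counts in each library of the other, skipping genes at the floor in both lines. Of these, 3 are given here. In 1205Lu-R these genes were SLAIN1, EDNRB and POU4F1 (chr13:77697687-78603552). In 451Lu-R they were ISLR2, STRA6 and CCDC33 (chr15:74100311-74336472) and CCDC74A, GPR39 and LYPD1 (chr2:131527675-132671579). STRA6, a vitamin A transporter, averaged 121 against 0.0459 CPM (1205Lu-R first).

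**Figure D4:**
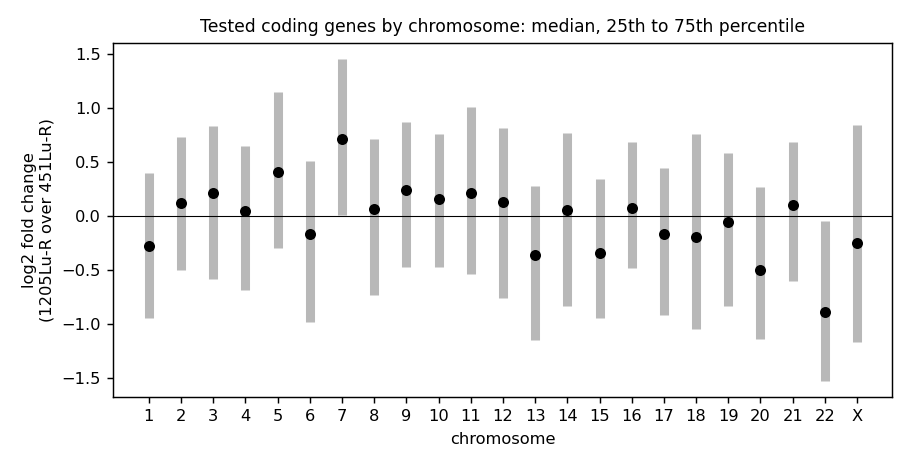
Median log2 fold change (1205Lu-R over 451Lu-R) of tested protein-coding genes by chromosome, with bars from the 25th to the 75th percentile of genes. Positive values are higher in 1205Lu-R. Chromosome 22 has the lowest median and chromosome 7 the highest.

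In the corin libraries, 1287 genes (8.39% of 15347 tested) were called higher in 1205Lu-R and 1312 (8.55%) higher in 451Lu-R. Of the genes called higher in 1205Lu-R with DMSO and tested with corin, 1273 of 1341 had the same sign and 767 (57.2%) were called again. For 451Lu-R genes it was 1301 and 757 (56.3%) of 1344. MITF was 287 and 286 CPM in 451Lu-R and 16.5 and 15.03 CPM in 1205Lu-R with corin and AXL 2.46 and 2.300 CPM in 451Lu-R and 480.1 and 471 CPM in 1205Lu-R. The test of whether corin altered the line difference (the interaction of line and compound, corin minus DMSO) called 896 of 16046 genes (5.58%). Among the 15 genes the study discusses it called AXL (log2 -5.68), WNT5A (-3.34), MITF (2.38) and ZEB2 (2.29), each with a sign opposite to its DMSO line difference. AXL was at the floor in 451Lu-R with DMSO, so its value depends on the prior count of the fit. SOX10 could not be judged, as it had no reads in 1205Lu-R with either treatment.

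**Figure D5:**
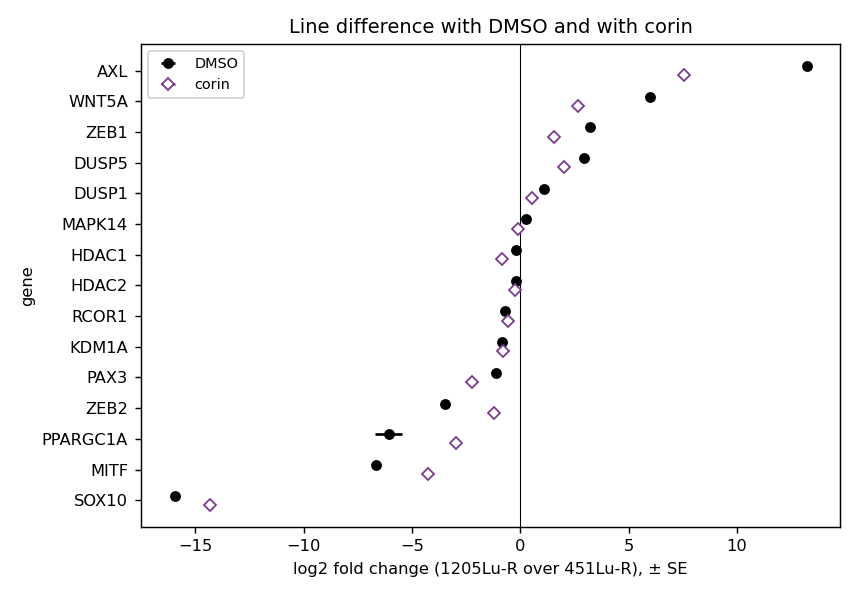
Line difference (log2 fold change, 1205Lu-R over 451Lu-R) of 15 genes the study discusses, with DMSO (filled circles) and with corin (open diamonds). Bars are SEs of the edgeR fit, n = 2 libraries a group. For AXL, MITF, WNT5A and ZEB2 the corin value lies nearer 0 than the DMSO value, on the same side of 0. The same holds for ZEB1, DUSP5, DUSP1, RCOR1, KDM1A, PPARGC1A and SOX10. For PAX3, HDAC1 and HDAC2 the corin value lies farther from 0, and MAPK14 changes side. The DMSO values of AXL and PPARGC1A and both values of SOX10 rest on a line at the floor and depend on the prior count.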

How the data were processed

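The authors deposited estimated counts per gene from polyA RNA-seq libraries run on an Illumina NextSeq. Reads had been trimmed with Trimmomatic and quantified with salmon against the GENCODE v32 transcriptome, in versions not given in the sources used here. The 2 tables of the authors' own comparisons (fold changes and adjusted p-values for PLX4032 with and without corin) and the libraries of the PLX4032 arms were not used.

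Libraries were grouped by their titles. Estimated counts were rounded to whole numbers, filtered with filterByExpr on the line (count minimum 10), scaled by TMM and tested with the edgeR (version 4.0.16, R 4.3.3) quasi-likelihood test, with Benjamini-Hochberg adjustment over all genes tested. Calls required a 4-fold change and an adjusted p under 0.001, one of several pairs of thresholds the study used. DESeq2 (version 1.42.0) was an alternative. CPM is the estimated count per 1000000 of the library's total. The same test was applied to the 4 corin libraries, and the interaction of line and compound was tested over all 8. On simulated counts for the DMSO comparison (14090 genes), edgeR recovered 99 of 100 genes changed 4-fold and 99 of 100 changed 8-fold. It made 2 false calls. Here a gene was recovered at an adjusted p under 0.001 in the right direction, with no fold limit. The changed genes were drawn only from better-counted genes and were far fewer than those called in the data. The share of 4-fold genes that the full calling rule finds was therefore not measured.

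Positions came from GENCODE v44 on GRCh38, which matched 34052 of 34228 genes by identifier, and promoters from RefSeq (GRCh38.p14). The strand of the library kit is not given in the sources used here, so reads of overlapping antisense genes (SOX10 and POLR2F, PMEL and CDK2, ZEB1 and ZEB1-AS1, ZEB2 and ZEB2-AS1) cannot be told apart. XIST, Y-linked genes and others, 76 genes in all, were left out of the output, and some other genes that the rules below select are not reported here. Members and gene lists were chosen with earlier results of these data known, and the mitochondrially encoded list and EGFR after their values were seen, so lists are described by counts and medians with no test.

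Named genes were the 15 highest of those at the floor in the other line, the 12 with the largest change among genes with at least 10 counts in every library, in each direction, the 10 highest genes of each line, list members (in lists over 26 genes, up to 6 called in each direction and up to 4 not called), genes the study names and members of chromosome runs. From these a selection is printed. Whether replicate numbers pair the samples is not known, and the main test used no pairing. Deviations of same-numbered libraries from their line means correlated at 0.053, which with 2 libraries a line cannot settle it. Library totals support estimates near 1 CPM from about 10 counts, and intervals are not given because the counts are estimates. Alternatives covered tool, scaling, filter, block, samples in the fit, thresholds and leaving out each library.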

Additional observations from a re-analysis of the deposited data

Results flagged for a closer look

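The line difference of 4 genes differed between the DMSO and the corin libraries by the test of the interaction of line and compound (edgeR, called at a 4-fold change and an adjusted p under 0.001, n = 2 libraries a group). The change of the log2 line difference (1205Lu-R over 451Lu-R, corin minus DMSO) was -5.68 for AXL, -3.34 for WNT5A, 2.38 for MITF and 2.29 for ZEB2. AXL had at most 3 counts in each 451Lu-R library with DMSO, so its value depends on the prior count of the fit.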

How the results depend on the processing

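The main rule called 1417 genes higher in 1205Lu-R and 1491 higher in 451Lu-R. Without a fold limit at an adjusted p under 0.05 the counts were 5771 and 5844, and with a 2-fold limit 2747 and 3076. Under the alternatives of tool (DESeq2: 1272 and 1323), scaling, filter and samples in the fit, both counts stayed within 1.5 times the main ones. Leaving out each library, with the lone library assumed to vary like those of the other line, gave 1352 to 1412 and 1400 to 1463. With a replicate block the counts were 1417 and 1494, and in the corin libraries 1188 and 1221 in place of 1287 and 1312, and the interaction called 870 in place of 896 genes. Whether the replicate numbers pair the samples is not known, and the block is given here only. Scaling by library size alone moved the median log2 fold change of all genes from -0.013 to -0.119, and no other scaling moved it by more than 0.1. Of 173 genes with printed values, 165 kept their call and direction under every alternative run. Genes that were not called turned direction under library size alone: AP3D1 (-0.071), ITGAV (-0.01) and TYRO3 (-0.072). Leaving out each library gave -0.123 to 0.432 for AXIN2, turning without 1205Lu-R replicate 2, and -0.168 to 0.004 for BRAF, turning without 451Lu-R replicate 2. MT-CO1 was called under library size alone (-2.079). The causes were not tested. Under the filter of at least 0.929 CPM, low genes cannot be compared at this depth.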
